A study of Mus musculus with 2 samples.

Results

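C1q macrophages low in Pf4 and Ccl8 were the larger group of C1q-positive macrophages in mouse peritoneal tumors, and they were chosen by their own UMI counts. A member was a cell with at least 5 UMIs of C1qa, C1qb and C1qc together, at most 2 UMIs of Pf4 and Ccl8 together, no UMI of Cd3d, Cd3e, Cd3g or Cd79a, and under 20 UMIs of Col1a1, Col1a2, Col3a1 and Dcn together. A UMI (unique molecular identifier) stands for 1 captured transcript. There were 994 members among 15156 kept cells, 780 of 8770 in the control IgG library and 214 of 6386 in the Activin A neutralizing antibody library. Every gene of these cells was open to the choice, so all levels that follow are descriptions.

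Female C57BL/6 mice aged 6 to 8 weeks had their peritoneal wall abraded, which draws fibroblasts to the wound, and were injected i.p. with syngeneic ovarian cancer cells of the genotype p53-/-, myc, Hras. Both groups carried these tumors and differed in the antibody given i.p., control IgG or one that neutralizes Activin A. The labels give 7 control IgG and 8 antibody mice and 10 days of treatment. Tumor tissue was pooled over the mice of a group, dissociated with enzymes, depleted of red and dead cells and loaded without sorting, so each group was 1 library with no replicate, and antibody and library cannot be told apart.

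C1q, the recognition component of the classical complement pathway, is made by tissue macrophages, and its genes mark cells that have passed from the blood monocyte stage to a tissue macrophage state. Tumor macrophages commonly combine such resident features with genes they had as monocytes. Cxcl9 is an interferon gamma induced chemokine that attracts T cells through CXCR3. Cd14 is a co-receptor for bacterial lipopolysaccharide and Saa3 an acute phase protein of macrophages. Activin A, a dimer of the Inhba product, is a TGF-beta family ligand.

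The 780 control IgG members held 6032655 UMIs, with a median of 7124 UMIs and 2546 genes per cell. The 214 antibody members held 1367211 UMIs, with medians of 6132 UMIs and 2264.5 genes. The members were thus deeper in the control IgG library, as were the kept cells as a whole, with medians of 5719 and 4660 UMIs. Among all kept cells 19 barcodes occurred in both libraries. Levels are given as CPM, the UMIs of a gene scaled to all UMIs of the same cells, which do not scale with transcript length in 3′ libraries, and intervals are exact 95% intervals that cover counting error only, not the spread between mice.

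Values at the limits of the rule show where the line was drawn. The median member had 46.5 C1q UMIs in the control IgG library and 26.5 in the antibody library, with a range of 5 to 471 and 5 to 374. Pf4 and Ccl8 were at 0 in 646 and 172 members, at 1 UMI in 100 and 27, and at 2 UMIs in 34 and 15, while 34 and 7 cells lay just outside with 3 UMIs. Members with 2 UMIs had Cd14 levels of 1683 and 937.9 CPM, and the cells with 3 UMIs just outside had 1541 and 808.9 CPM. At the C1q limit, 40 and 16 members had 5 or 6 UMIs, and 32 and 21 cells with 3 or 4 UMIs were left out.

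Macrophage markers were detected in a larger share of members than of all other kept cells, among which T cells were the largest part. T cells made up 51.6% and 62.9% of kept cells, so this comparison does not separate members from other myeloid cells. All 12 genes of a macrophage core list were detected, with summed levels of 19450 CPM in the control IgG and 16580 CPM in the antibody members, led by the lysozyme gene Lyz2 at 6316 and 4413 CPM. Csf1r, the receptor for the macrophage growth factor CSF1, was detected in 90.9% of control IgG and 85.0% of antibody members, against 15.1% and 7.52% of all other kept cells. Adgre1, which encodes the macrophage marker F4/80, was detected in fewer members, 57.7% and 49.1%, against 8.72% and 3.86% of the other cells. Cd14 stood at 1161 and 1051 CPM in members against 124.0 and 46.5 CPM in all other kept cells, and Cxcl9 at 448.2 and 433.7 CPM against 97.0 and 36.4 CPM.

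Saa3 reached 5671 and 5788 CPM in members, against 640.7 and 317.4 CPM in all other cells. It was detected in 53.0% of control IgG and 39.3% of antibody members, but also in 17.4% and 7.40% of T cells, which should lack it and had median depths of 4858 and 4308 UMIs. Cd14 was detected in 86.3% and 85.0% of members against 4.25% and 1.64% of T cells. Cxcl9 was detected in 33.9% and 28.5% of members against 1.73% and 0.498% of T cells. All 3 genes were therefore detected in a larger share of members than of T cells in both libraries. In GENCODE M21 coordinates (GRCm38) C1qa lies at chr4:136895917-136898803, Cxcl9 at chr5:92321347-92328079 and Saa3 at chr7:46711998-46715700, all on the minus strand.

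With mitochondrial, ribosomal, haemoglobin, Gm and Rik genes left out, the most abundant transcripts included genes of the MHC class II pathway. Cd74, the invariant chain that accompanies MHC class II, was at 17110 and 13960 CPM, H2-Ab1 at 5783 and 4933 CPM and H2-Aa at 5560 and 4649 CPM. The ferritin heavy chain gene Fth1 was at 11930 and 11420 CPM. Srgn, the proteoglycan core of storage granules, was at 7069 and 4941 CPM. Tmsb4x and Actb, genes of the actin cytoskeleton, were at 18050 and 16080 CPM and at 8291 and 8904 CPM, and the nuclear RNA Malat1 at 9230 and 9315 CPM.

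Most markers of other cells were at low levels. T cell markers summed to 19.6 and 21.2 CPM over 4 of 7 detected genes, led by Trbc2, with Cd3d, Cd3e and Cd3g at 0 by the rule. NK cell markers summed to 36.6 and 19.8 CPM with all 6 detected, led by Gzma. B cell markers summed to 46.4 and 27.8 CPM over 4 of 5 genes, led by Ighm, with Cd79a at 0 by the rule. Each of these 3 sums was below the level of the same list in the free RNA of its library.

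Free RNA, the pooled profile of barcodes with under 100 UMIs, held T cell markers at 1448 and 1491 CPM, NK cell markers at 813.3 and 930.8 CPM and B cell markers at 748.0 and 502.6 CPM. Neutrophil markers summed to 98.0 and 73.9 CPM in members, with 8 of 9 detected, Csf3r highest and Ly6g at 0, and to 139.4 and 806.0 CPM in free RNA. With control IgG, 5 members had 5 or more UMIs of S100a8 or S100a9, 4 had as many of Cd209a and 5 of Acta1, against 0 antibody members for each. Dendritic cell markers summed to 20.7 and 19.8 CPM, with all 8 detected and Cd209a highest. Fibroblast markers, 4 of which the rule limits, summed to 40.5 and 30.7 CPM with all 6 detected and Col3a1 highest. Cancer-like markers summed to 92.3 and 40.2 CPM with all 7 detected, led by Dlk1, against 782.4 and 1542 CPM in free RNA.

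Endothelial markers summed to 66.1 and 81.2 CPM with all 4 detected, led by Pecam1, which macrophages also express, and were above the 29.9 and 37.5 CPM of free RNA in both libraries. Skeletal muscle markers summed to 63.0 and 17.5 CPM with all 5 detected and Acta1 highest. Mesothelial markers summed to 1.82 and 2.19 CPM over 3 of 5 genes, with Wt1 highest and Upk3b and Lrrn4 at 0. Erythroid markers summed to 0.497 and 2.19 CPM over 3 of 4 genes, with Hba-a2 highest and Hbb-bt at 0. Mast cell and eosinophil markers summed to 0.995 and 0.731 CPM, led by Siglecf, with Cpa3, Mcpt4, Epx and Prg2 at 0.

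The members were a smaller share of the cells in the antibody library. They made up 8.89% (8.31 to 9.51) of kept cells in the control IgG library and 3.35% (2.92 to 3.82) in the other, so the log2 ratio of the shares was -1.41 (-1.63 to -1.19). C1q macrophages with Pf4 or Ccl8, those with 3 or more UMIs of these genes, were lower alongside, with 220 cells (2.51%) and 60 cells (0.9396%) and a log2 ratio of -1.42 (-1.854 to -0.999). Members therefore formed 78.0% (75.3 to 80.5) and 78.1% (72.7 to 82.8) of all C1q macrophages. The ratio of these last shares was 0.00 on the log2 scale with an interval from -0.22 to 0.22.

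The share of monocyte-like cells differed less. These cells, with at most 1 C1q UMI, at least 5 Lyz2 UMIs and at least 5 UMIs of Ly6c2, Ccr2 and Plac8 together, were 3.24% (2.88 to 3.63) and 2.82% (2.43 to 3.26) of kept cells, a log2 ratio of -0.20 (-0.48 to 0.07). T cells were 51.6% and 62.9%. With 1 pooled library per group, none of these differences could be tested between mice, and shares of 1 library depend on each other.

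Compared with C1q macrophages with Pf4 or Ccl8, members had higher levels of the monocyte gene Plac8 and lower levels of the resident and scavenger genes Mrc1, Folr2 and Stab1. Most genes past 2-fold were in neither the monocyte nor the resident and scavenger list. Of 3230 genes compared, 16 (0.495%) were at least 2-fold higher and 21 (0.65%) at least 2-fold lower in members within both libraries. A gene was compared where it reached 50 CPM in either population within each library. Plac8, Mrc1, Folr2 and Stab1 did so in both populations. Ifitm6 reached 50 CPM only in members, and Cbr2, Fcrls, Tmem8 and Gpt2, among others, only in the Pf4 or Ccl8 cells. The median log2 ratio of all compared genes was 0.02 with control IgG and 0.03 with the antibody. Since Pf4 and Ccl8 separated these cells within the same libraries, the counts describe the split and carry no test.

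Plac8, a small protein of immature myeloid cells, was at 895.3 and 1077 CPM in members, at 283.3 and 264.9 CPM in C1q macrophages with Pf4 or Ccl8 and at 2912 and 2826 CPM in monocyte-like cells. Plac8 was among the genes that chose the monocyte-like cells, so its level there was in part set by that choice. Ifitm6 was at 86.2 and 113.4 CPM in members and at 19.1 and 15.9 CPM in the Pf4 or Ccl8 cells. Ifitm1, an interferon-induced membrane protein, was at 624.4 and 1102 CPM against 219.8 and 196.0 CPM. Both Ifitm genes were highest in monocyte-like cells. Hp, which encodes the haemoglobin-binding haptoglobin, was at 94.5 and 106.1 CPM against 31.0 and 26.5 CPM, and the aspartic protease gene Napsa at 84.0 and 72.4 CPM against 31.0 and 10.6 CPM.

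Gpr141, an orphan receptor gene, ranked highest by the smaller of its ratios, with 123.5 and 92.9 CPM in members against 20.6 and 7.95 CPM. Ly6i was at 125.5 and 120.0 CPM against 41.8 and 7.95 CPM, Klrb1b at 56.4 and 54.1 CPM against 11.9 and 18.6 CPM, Hopx at 83.6 and 76.8 CPM against 34.6 and 18.6 CPM, and Fry at 59.7 and 59.2 CPM against 25.3 and 23.8 CPM. Ciita, the master activator of MHC class II genes, was at 116.5 and 92.2 CPM against 50.6 and 34.4 CPM. Acod1, which makes itaconate in activated macrophages, was at 120.8 and 142.6 CPM against 50.1 and 68.9 CPM.

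The lower genes included several of the resident and scavenger type. Mrc1, the mannose receptor, was at 422.7 and 487.9 CPM in members against 863.9 and 1139 CPM in the Pf4 or Ccl8 cells. Folr2, the folate receptor beta of resident macrophages, was at 127.1 and 62.2 CPM against 329.8 and 249.0 CPM. Stab1, a scavenger receptor, was at 67.1 and 64.4 CPM against 188.9 and 246.4 CPM. These 3 surface receptors thus had their higher level, in both libraries, in the cells with Pf4 or Ccl8.

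Cbr2 was at 25.9 and 23.4 CPM against 117.1 and 92.7 CPM, Fcrls at 17.1 and 9.51 CPM against 90.8 and 50.3 CPM, and the membrane protein gene Ms4a7 at 204.7 and 161.6 CPM against 602.2 and 580.2 CPM. Fabp5, a fatty acid binding protein, was at 276.0 and 481.3 CPM against 823.1 and 1523 CPM. The chemokine gene Ccl12 was at 33.6 and 34.4 CPM against 111.0 and 140.4 CPM. Tmem8 was at 19.1 and 18.3 CPM against 85.2 and 87.4 CPM and Gpt2, an alanine aminotransferase, at 19.4 and 10.2 CPM against 56.8 and 50.3 CPM. Retnla, a product of alternatively activated macrophages, was at 116.0 and 79.0 CPM against 431.4 and 948.4 CPM. In members, 9 cells of the control IgG library held 675 of its 700 UMIs there, and 2 of the antibody library held 90 of 108.

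By list, the 11 compared resident macrophage and scavenger genes had medians of -1.03 and -1.67. Mrc1, Folr2, Stab1, Selenop and Retnla, which reached 50 CPM in both populations, were at least 2-fold lower in both libraries. Selenop was at 248.6 and 206.3 CPM in members against 559.9 and 940.5 CPM. The 10 compared monocyte genes had medians of 0.69 and 0.92, with Plac8 at least 2-fold higher. Ifitm6, which reached 50 CPM only in members, is given as values and not counted. Of 18 lipid and lysosome genes 2, Fabp5 and Cd63, were at least 2-fold lower, with medians of -0.45 and -0.98. Apoe, the carrier of lipids out of macrophages, was at 4726 and 3220 CPM in members against 8844 and 8472 CPM. The 7 MHC class II genes had medians of 0.39 and 0.64. Ciita among them was at least 2-fold higher, but in the antibody library it reached 50 CPM only in members. Of 11 compared chemokine genes, Ccl12 and Ccl7 were at least 2-fold lower. Ccl7 was at 44.9 and 109.0 CPM in members against 95.5 and 386.8 CPM. Ccl12 reached 50 CPM only in the Pf4 or Ccl8 cells, as did Ccl7 with control IgG. Ciita, Ccl12 and Ccl7 are therefore given as values and not counted for their lists. Erythroid transcripts stood at 1921 CPM in the Pf4 or Ccl8 cells of the antibody library, and their part in these ratios was not tested.

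Cd14 and Saa3 were not part of this split. Cd14 was at 1562 and 1070 CPM in the Pf4 or Ccl8 cells and Saa3 at 6412 and 6059 CPM. Cxcl9 was at 383.9 and 174.9 CPM there.

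**Figure D1:**
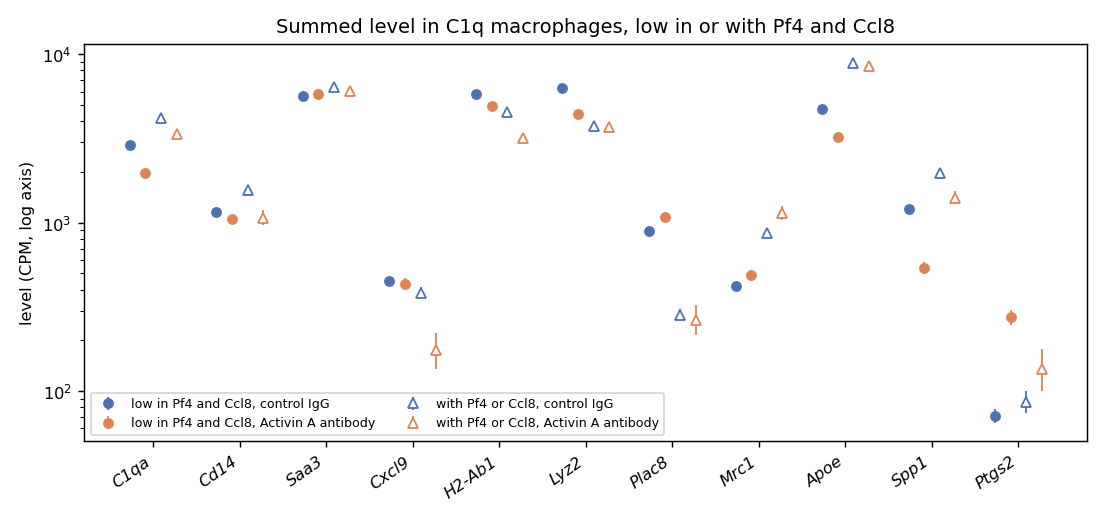
Summed level of 11 genes in CPM (log axis) in C1q macrophages low in Pf4 and Ccl8 (filled circles) and in those with Pf4 or Ccl8 (open triangles), in the control IgG (blue) and antibody (orange) libraries, with exact 95% Poisson intervals of the counts. Plac8 is higher and Mrc1 and Apoe are lower in members in both libraries, while Spp1 and Ptgs2 differ between the libraries within members.

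**Figure D2:**
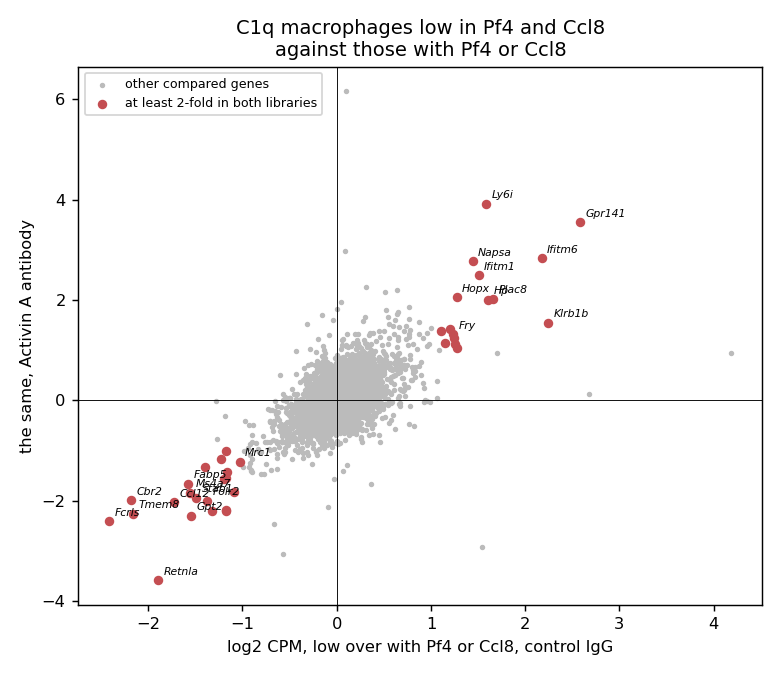
Log2 ratio of CPM in members over C1q macrophages with Pf4 or Ccl8, in the control IgG library (horizontal axis) and the antibody library (vertical axis), for 3230 genes without the rule genes. Red points are the 16 genes at least 2-fold higher and the 21 at least 2-fold lower in both libraries.

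Between the antibody and the control IgG library, members had higher levels of early response, cytokine and chemokine genes and lower levels of a few macrophage genes. Of 3455 compared genes, 49 (1.42%) were at least 2-fold higher and 9 (0.26%) at least 2-fold lower with the antibody, and the median log2 ratio was 0.02. A gene was compared where it reached 50 CPM in either library, and 24 of the 49 and 5 of the 9 did so only in the library where they were higher. No test was possible with 1 library per group, and ratios are given with counting intervals only. Among the members' markers Cd14 had a log2 ratio of -0.14 (-0.23 to -0.06) and Cxcl9 of -0.05 (-0.18 to 0.08). Saa3 had a ratio of 0.03 (-0.01 to 0.06) that rested on few cells. It was -0.71 without 15 and 16 members that carried peritoneal macrophage genes, and -0.32 over members with no Pf4 or Ccl8 UMI.

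The rule genes themselves were lower, C1qa going from 2899 to 1973 CPM (log2 ratio -0.55), C1qb from 3627 to 2542 CPM and C1qc from 1887 to 1345 CPM. Their median log2 ratio was -0.51, and it was -0.35 in C1q macrophages with Pf4 or Ccl8. The macrophage core list had none of 12 genes past 2-fold and a median of -0.15. Within that list Lyz2 had a ratio of -0.52, and Ctss, a lysosomal protease, of -0.32.

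Immediate early and heat shock genes were the list with the most genes past 2-fold. Of 13 compared genes, 6 were at least 2-fold higher, none was 2-fold lower, all 13 ratios were above 0 and the median was 0.96. Among all 3455 genes compared in members, 1838 had ratios above 0. Fos, a subunit of the AP-1 transcription factor, went from 587.6 to 1217 CPM (log2 ratio 1.05, 0.97 to 1.14), and Fosb from 119.8 to 297.7 CPM. Egr1, a growth factor induced zinc finger protein, went from 174.6 to 427.9 CPM. Atf3, a stress-induced transcription factor, went from 164.3 to 369.4 CPM.

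Zfp36, which degrades cytokine mRNAs, went from 534.3 to 1140 CPM, and Dusp1, a phosphatase that turns off MAP kinases, from 481.5 to 1072 CPM. Junb, the most abundant of the list, went from 974.7 to 1891 CPM, with a log2 ratio of 0.96. The heat shock gene Hspa1a was at 112.1 and 191.6 CPM and Dnajb1 at 75.9 and 90.7 CPM. The list's median was 0.92 in the Pf4 or Ccl8 cells, 0.50 in monocyte-like cells, 0.22 in T cells and 0.73 in free RNA, in which the median over all compared genes was 0.36. Enzymatic dissociation is known to induce these genes, its part here was not tested, and each library was dissociated as 1 pool.

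The promoters of these genes are shown because all compared genes of the list had ratios above 0. RefSeq windows of 250 bases before the gene start (GRCm38.p6) were found for 12 of the 14 genes of the list and searched on both strands for the CArG box, which serum response factor binds, and for the CRE, TGACGTCA, which CREB and ATF factors bind. Both motifs read alike on either strand and do not overlap in these windows. The CArG box occurred in 1 of the 12 genes, Zfp36, and in 1.47% of all 32851 windows, and the CRE in 1, Dusp1, and in 1.55% of windows. The windows lie at chr7:28379229-28379478 and chr17:26508473-26508722, both on the minus strand, and capitals mark the motif, a match that describes letters and no binding.
Zfp36: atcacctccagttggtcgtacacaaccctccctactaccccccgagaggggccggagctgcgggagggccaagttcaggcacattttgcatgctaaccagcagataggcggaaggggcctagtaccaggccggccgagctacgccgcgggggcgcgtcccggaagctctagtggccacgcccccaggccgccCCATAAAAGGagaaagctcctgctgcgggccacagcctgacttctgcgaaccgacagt
Dusp1: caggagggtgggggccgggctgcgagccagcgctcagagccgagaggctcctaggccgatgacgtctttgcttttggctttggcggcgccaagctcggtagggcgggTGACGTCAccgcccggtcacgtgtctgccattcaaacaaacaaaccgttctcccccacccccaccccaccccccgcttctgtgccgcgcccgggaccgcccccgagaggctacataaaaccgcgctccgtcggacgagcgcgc

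Inflammatory cytokine genes were higher as well, with 3 of 9 compared genes at least 2-fold higher, all 9 ratios above 0 and a median of 0.77. Ptgs2, the inducible cyclooxygenase that makes prostaglandins, went from 70.8 to 273.5 CPM (log2 ratio 1.95, 1.75 to 2.15). It was detected in 23.8% of control IgG and 39.3% of antibody members, beside 1.13% and 0.996% of T cells, and the 10 members with most held 24.4% and 39.6% of its UMIs. Osm, encoding oncostatin M, went from 71.4 to 198.2 CPM, and the interleukin-1 receptor antagonist Il1rn from 119.7 to 268.4 CPM. Il1b, encoding interleukin-1 beta, was at 479.2 and 824.3 CPM, Tnf at 151.8 and 201.1 CPM and the NF-kappa-B inhibitor Nfkbia at 491.3 and 822.8 CPM. Il12a had no UMI. The list's median was 0.71 in the Pf4 or Ccl8 cells, 0.39 in monocyte-like cells and 0.40 in T cells.

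Of 10 compared chemokine genes 4 were at least 2-fold higher and the median was 0.61. Cxcl2, which draws neutrophils, went from 670.2 to 1583 CPM (log2 ratio 1.24, 1.16 to 1.32). Ccl2, which draws monocytes, went from 160.3 to 400.8 CPM, Ccl7, which reached 50 CPM only with the antibody, from 44.9 to 109.0 CPM and Ccl3 from 100.6 to 245.0 CPM. The 10 members with most held 48.2% of the antibody library's Ccl2 UMIs, 71.1% of its Ccl7 UMIs and 47.8% of its Ccl3 UMIs. Ccl6 was at 1327 and 1698 CPM and Ccl5, which draws T cells, at 1290 and 1564 CPM, and Cxcl16 was lower at 346.3 and 287.4 CPM. The list's median was 0.90 in the Pf4 or Ccl8 cells, 0.30 in monocyte-like cells and 0.07 in T cells.

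**Figure D3:**
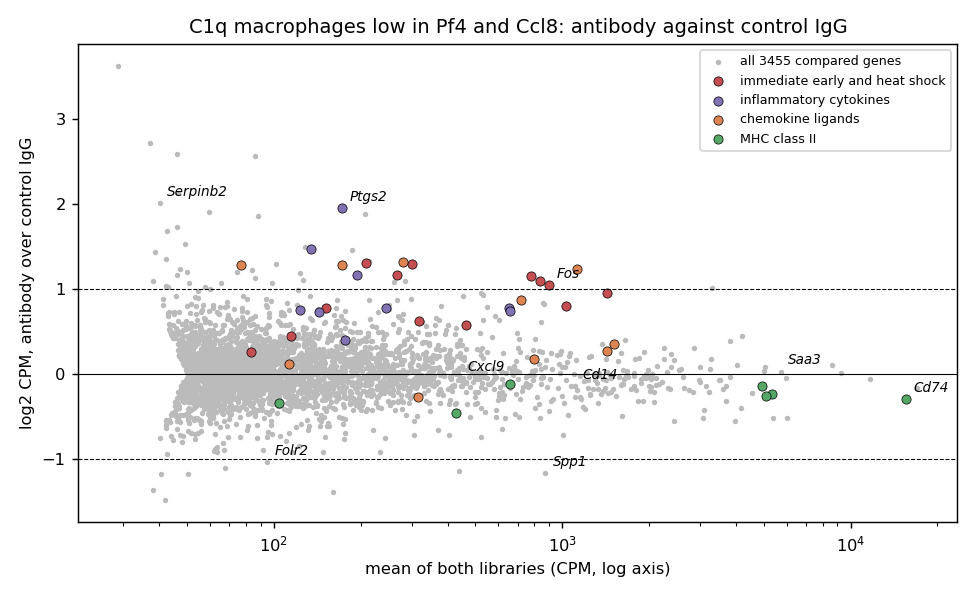
Log2 ratio of CPM, antibody over control IgG, against the mean CPM of both libraries (log axis) for the 3455 genes compared in members, with dashed lines at 2-fold. Immediate early, cytokine and chemokine genes lie mostly above 0, with list medians of 0.96, 0.77 and 0.61, and the 7 MHC class II genes lie below 0.

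MHC class II genes were lower in all 7 compared, none past 2-fold, with a median of -0.26. Cd74 had a log2 ratio of -0.29 (-0.32 to -0.27) and H2-Ab1 of -0.23 (-0.27 to -0.19). The same list had medians of -0.52 in the Pf4 or Ccl8 cells, -0.81 in monocyte-like cells, -0.53 in T cells and -0.76 in free RNA. The median was thus below 0 in every population set beside the members. MHC class I genes had none of 13 past 2-fold and a median of -0.07, with B2m at 3059 and 2912 CPM.

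Interferon lists showed no gene past 2-fold. The 19 compared interferon gamma induced genes had a median of 0.05, with Fcgr4 at 523.5 and 409.6 CPM, Gbp2 at 345.1 and 399.4 CPM and Cxcl10 at 274.5 and 283.8 CPM. The 9 compared type I interferon genes had a median of 0.25, with Ifi27l2a at 968.6 and 1153 CPM and Isg15 at 172.7 and 286.0 CPM. Cxcl9 was lower in both other myeloid populations, with a log2 ratio of -1.14 in the Pf4 or Ccl8 cells and -2.48 in monocyte-like cells, and the difference between these ratios and that of members was not tested.

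Glycolysis and hypoxia genes had none of 24 past 2-fold and a median of -0.21. Gapdh went from 3548 to 2657 CPM and the aldolase gene Aldoa from 1367 to 1031 CPM, and Vegfa, in the growth factor list, was at 245.2 and 321.1 CPM. The 3 compared growth factor genes had a median of 0.39 and the 9 oxidative stress and iron genes of 0.49, with none past 2-fold. In the latter list the ferritin genes Fth1 and Ftl1 had ratios of -0.06 and 0.09, and the antioxidant gene Prdx1 went from 469.9 to 732.1 CPM. Nos2, the inducible nitric oxide synthase, was at 122.8 and 110.4 CPM.

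The lower genes included Spp1, osteopontin, a matrix protein of tumor macrophages. It went from 1208 to 539.8 CPM (log2 ratio -1.16, -1.27 to -1.05) and was detected in 58.5% and 48.6% of members, beside 26.1% and 20.2% of T cells. Free RNA held Spp1 at 1262 and 1877 CPM, at or above the members' level in both libraries and with a ratio of the opposite sign, 0.57. With free RNA subtracted, the members' Spp1 ratio was -1.273 (-1.385 to -1.164). The amount subtracted was scaled by haemoglobin transcripts, at 0.497 and 2.19 CPM in members, the level of 3 counts. That interval leaves out the error of this scaling. The 10 members with most held 21.9% of Spp1 UMIs with control IgG and 50.7% with the antibody. Its 2-fold call was lost, at -0.95, when cells were thinned to 2000 UMIs before the rule. Over members with no Pf4 or Ccl8 UMI the ratio was -1.47. In the Pf4 or Ccl8 cells its ratio was -0.48, and in monocyte-like cells 1.00. Folr2 went from 127.1 to 62.2 CPM, and Timp1, a metalloproteinase inhibitor that did not pass 2-fold, from 652.0 to 390.6 CPM.

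Tmem119 went from 54.7 to 21.2 CPM, Tmem37 from 69.6 to 30.7 CPM, the ribonuclease gene Rnase4 from 56.2 to 24.9 CPM and the lysozyme gene Lyz1 from 92.7 to 43.1 CPM. Lyz1 is a near copy of Lyz2, so its counts are uncertain. Actr10, Zdhhc14 and Pde4d had ratios of -0.94, -0.92 and -0.92, short of 2-fold.

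Most other lists had medians near 0. Lipid and lysosome genes had 1 of 18 past 2-fold lower, Spp1, and a median of -0.01, with the lysosomal proteases Ctsb at 1680 and 1651 CPM and Lgmn at 1219 and 1156 CPM. Protease and matrix genes had a median of 0.00 with 1 of 11 lower, Spp1. Mmp12 in that list, Fcna among the resident genes and Vcan among the monocyte genes were also past 2-fold higher, but reached 50 CPM only with the antibody. Fn1, fibronectin, was at 2798 and 2500 CPM and Tgfbi at 1673 and 1670 CPM. Resident and scavenger genes had a median of -0.06 with 1 of 11 lower, Folr2. The 15 and 16 members that carried peritoneal macrophage genes had Fcna at 261.7 and 546.8 CPM, against 9.87 and 15.8 CPM in the other members. Acute phase and pattern recognition genes had a median of 0.17 with 1 of 13 higher, the scavenger receptor gene Marco, at 67.3 and 189.4 CPM. Marco was detected in only 2.69% and 8.41% of members, and 10 members held 91.6% and 88.4% of its UMIs. In the Pf4 or Ccl8 cells its log2 ratio was -4.57. The 11 compared monocyte genes had a median of -0.14, and Vcan was at 25.0 and 94.3 CPM.

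Checkpoint ligand genes had none of 6 past 2-fold and a median of 0.10, with Sirpa at 434.3 and 465.2 CPM and Cd274, encoding PD-L1, at 315.4 and 330.6 CPM. Cell division genes were mostly too low to compare, and the 2 compared had a median of 0.47. Mki67 was found in 1.44% and 2.37% of members thinned to 2000 UMIs. Activin and TGF-beta pathway genes had none of 9 past 2-fold and a median of 0.14. Among them Pmepa1, a TGF-beta target, went from 82.5 to 43.9 CPM (log2 ratio -0.91, -1.32 to -0.52), Tgfb1 was at 220.0 and 261.8 CPM, and the activin receptor gene Acvr2a at 62.0 and 66.6 CPM. Inhba itself was too low to compare, with 39 and 42 UMIs (6.47 and 30.7 CPM) in 3.21% and 7.48% of members, and 10 members held 61.5% and 85.7% of these UMIs. A UMI of Inhba was found in 0.907% and 0.872% of T cells. Inhbb and Fst had no UMI, which allows up to 0.497 and 2.19 CPM.

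**Figure D4:**
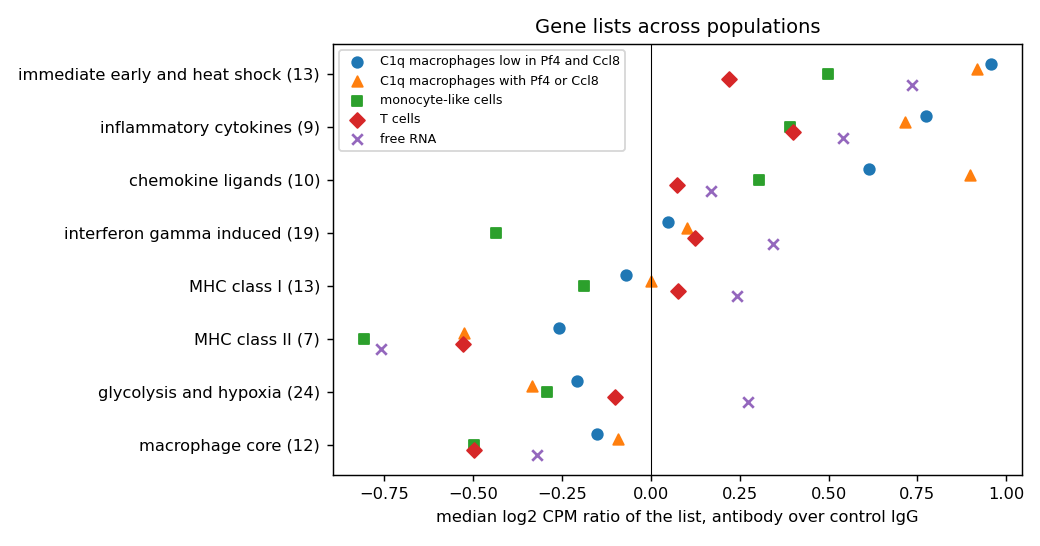
Median log2 CPM ratio, antibody over control IgG, of 8 gene lists (number of genes in parentheses, those compared in members) in members, C1q macrophages with Pf4 or Ccl8, monocyte-like cells, T cells and free RNA. The immediate early list has its highest median, 0.96, in members and 0.92 in the Pf4 or Ccl8 cells, and the MHC class II list is below 0 in all 5.

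Several of the higher ratios past 2-fold came from few cells. In 21 of the 49 genes at least 2-fold higher, more than 50% of the antibody library's UMIs lay in 10 members. For lower genes that library is the low side, so such a share does not describe their ratios. Tmem119 had 29 UMIs there, while 10 control IgG members held 19.4% of its UMIs in their library. Ccdc163 went from 4.31 to 53.4 CPM with 97.3% of antibody UMIs in 10 members, Trp53cor1 from 9.78 to 64.4 CPM with 97.7%, and Gdf15, a stress-induced TGF-beta family member, from 21.4 to 71.0 CPM with 88.7%. Ccdc162 went from 88.0 to 326.2 CPM with 57.4%. Mmp12, the macrophage elastase, went from 24.9 to 147.7 CPM, and 5 members of the antibody library held 197 of its 202 UMIs. Of the 49 genes, 44 also had a ratio above 0 in the Pf4 or Ccl8 cells, 36 in monocyte-like cells, 31 in T cells and 48 in free RNA, and 23, 9, 5 and 19 were at least 2-fold higher there. Of all 3455 compared genes, 1749, 1706, 1937 and 3085 had ratios above 0 in these 4 in turn, and 70, 25, 11 and 38 were at least 2-fold higher. Of the 9 genes at least 2-fold lower in members, 9, 8, 8 and 7 had ratios below 0 in the same order.

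A small set of members carried genes of peritoneal macrophages, the resident macrophages of the abdominal cavity. Of the 7 peritoneal macrophage genes 3 were compared, and all 3 met the limit of 50 CPM only in the antibody library, so that they are given as values and not counted. Prg4, encoding lubricin, went from 38.0 to 137.5 CPM, Serpinb2, a plasminogen activator inhibitor, from 15.9 to 64.4 CPM, and Alox15, a lipoxygenase, from 13.1 to 79.0 CPM. Of their UMIs 83.5% to 100% lay in 10 members, in each library. Members with 5 or more UMIs of Gata6, Alox15, Prg4 and Serpinb2 together numbered 15 of 780 (1.92%, 1.08 to 3.15) with control IgG and 16 of 214 (7.48%, 4.33 to 11.9) with the antibody. This limit was set after the values were seen. Their median depths were 15321 and 6690 UMIs, against 7108 and 6075.5 in the other members, and whether they include doublets was not tested.

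These 15 and 16 cells differed from the other members in further genes that did not choose them. Saa3 was at 35090 and 43660 CPM in them against 4347 and 2662 CPM in the other members. Adgre1 was at 662.1 and 1094 CPM against 176.9 and 159.9 CPM, the integrin gene Itgam at 1463 and 1928 CPM against 559.2 and 473.5 CPM, and the adhesion molecule gene Icam2 at 165.5 and 326.2 CPM against 10.2 and 7.92 CPM. H2-Ab1 was lower in them, at 2448 and 1775 CPM against 5933 and 5193 CPM, and Mrc1 at 46.2 CPM and at 0 UMIs, which allows up to 28.8 CPM, against 439.6 and 528.1 CPM. High Saa3, Adgre1 and Icam2 with low H2-Ab1 and Mrc1 was the pattern in both libraries.

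They held 26.7% of the Saa3 UMIs of all members with control IgG and 57.5% with the antibody. Cells past the same limit also occurred outside the members. They numbered 166 of 8770 (1.89%) and 141 of 6386 (2.21%) among all kept cells, and 3 of 220 (1.36%) and 1 of 60 (1.67%) among the Pf4 or Ccl8 cells. They were 0.332% and 0.174% of T cells and 0 of 284 and 0 of 180 monocyte-like cells, which allows shares of up to 1.06% and 1.67%. Members with 100 or more Saa3 UMIs, 75 (9.62%) and 24 (11.2%), held 82.1% and 84.4% of all Saa3 UMIs.

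Within a library, members were far from alike in Saa3. To compare cells of different depth each was thinned to 2000 UMIs, which left out 17 and 3 shallower members and kept 763 and 211. Saa3 was at 0 in 61.1% and 64.5% of them, at 1 to 2 UMIs in 9.83% and 9.48%, at 3 to 9 in 10.7% and 7.58%, and at 10 or more in 18.3% (15.7 to 21.3) and 18.5% (13.5 to 24.4). The shares at 10 or more had overlapping intervals.

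From the cells without Saa3 to those with 10 or more UMIs, Fn1 went from 1892 to 4811 CPM with control IgG and from 1816 to 5513 CPM with the antibody. Thbs1, thrombospondin, went from 504.3 to 939.3 CPM and from 801.5 to 1064 CPM, and Nos2 from 61.2 to 328.6 CPM and from 80.9 to 192.3 CPM. These 3 genes were higher at the Saa3 end in both libraries. Adgre1 was at 193.1 and 192.9 CPM at the 2 ends with control IgG and at 191.2 and 679.5 CPM with the antibody.

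In the other direction Lyz2 went from 6805 to 4786 CPM and from 4890 to 2231 CPM. Ly6c2, the classical monocyte marker, went from 245.7 to 32.1 CPM and from 165.4 to 51.3 CPM, and H2-Ab1 from 6170 to 5000 CPM and from 5585 to 2692 CPM. Cd14 was at 974.2 and 1318 CPM at the 2 ends with control IgG and at 1066 and 820.5 CPM with the antibody, so its order differed between the libraries. The bin of 3 to 9 Saa3 UMIs held only 16 antibody cells, and the carriers of peritoneal macrophage genes, which are rich in Saa3, are among the cells counted. Before thinning, the median depth at the 2 ends was 6915.5 and 8470.5 UMIs with control IgG and 6326.5 and 5628 UMIs with the antibody. The part of these carriers and of depth in the levels was not tested.

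**Figure D5:**
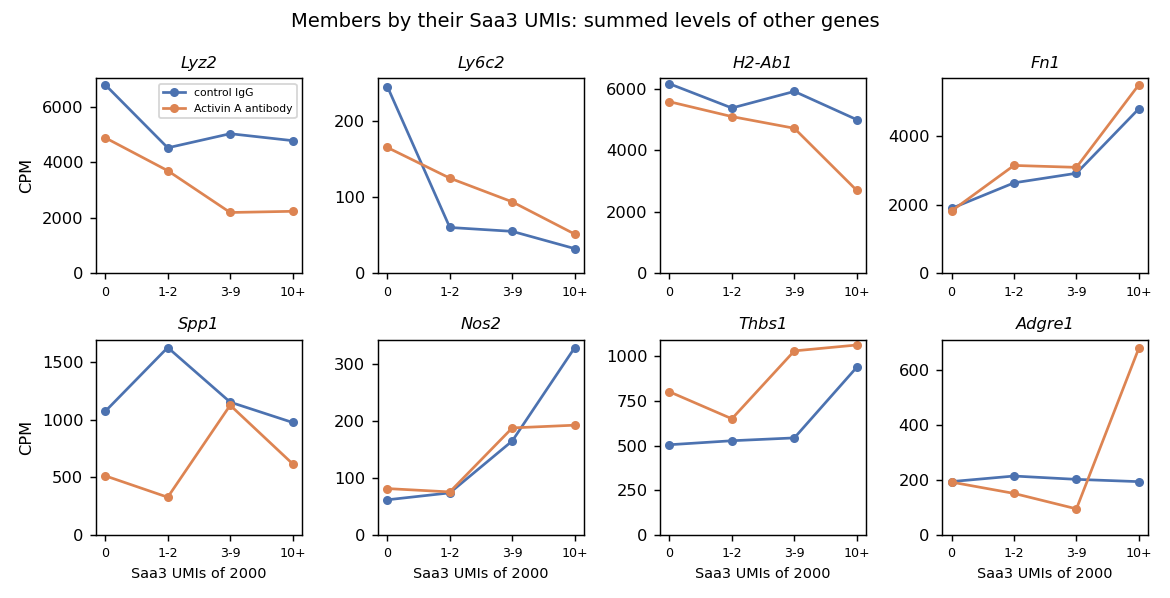
Summed level (CPM, from 0) of 8 genes in members by their Saa3 UMIs after thinning to 2000 UMIs, for the control IgG (blue) and antibody (orange) libraries. Ly6c2 is highest in members without Saa3 and Fn1 is highest in those with 10 or more Saa3 UMIs, in both libraries; the antibody bin of 3 to 9 UMIs holds 16 cells.

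Across single members, over 2716 genes detected in at least 10% of them, the genes most like Saa3 were Ltc4s, the leukotriene C4 synthase (Spearman rho 0.40 with control IgG, 0.57 with the antibody), Wfdc17 (0.37, 0.57), the amino acid transporter gene Slc7a2 (0.36, 0.49) and Fn1 (0.37, 0.43). The least like were Coro1a, H2-Eb1, Ccr2 and Cd52, with -0.16 to -0.32. These coefficients run over 763 and 211 cells that share a library and a depth and are given as descriptions.

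Cxcl9 marked a smaller set of members. A Cxcl9 UMI was found in 23.2% (20.2 to 26.4) and 19.4% (14.3 to 25.4) of thinned members, and 3 or more in 9.57% and 8.53%. The rho of Cxcl9 and Saa3 was 0.02 and -0.03. The genes most like Cxcl9 were Ccl5 (0.32, 0.42), the complement gene C3 (0.21, 0.34), Ly6i (0.21, 0.34), the MHC class II genes H2-Aa (0.21, 0.32), H2-Ab1 (0.23, 0.28) and H2-Eb1 (0.20, 0.23), Prdx5 (0.18, 0.28) and the immunoproteasome gene Psmb8 (0.13, 0.30). The least like were Thbs1 (-0.20, -0.26), Lgals3, Hdac9 and Adam15. All of these are weak in sparse counts.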

How the data were processed

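As deposited by the authors, the matrices held unnormalized UMI counts of 32285 genes in every barcode, empty droplets included. Per the file headers they came from Cell Ranger 4, while the submitters' processing notes name Cell Ranger 7.0.1 and mm10. Numbers of mice, days and 10x chemistry differ between the labels and the study's methods, and the labels' numbers were used. Of the gene identifiers 32235 matched GENCODE M21. The study's limits for cells (1000 to 8500 genes, 1000 to 100000 UMIs, mitochondrial share up to 10%) left 80208236 UMIs with control IgG and 57416419 with the antibody. Doublets were kept and no caller was run. T cells had at least 2 Cd3 UMIs and no C1q or Cd79a UMI. Monocyte-like cells also had no UMI of Ly6g, Camp, Ngp, Retnlg, Flt3, Cd209a or Ccr7.

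UMIs were summed over the cells of a population and library and divided by all their UMIs (CPM). Poisson, Clopper-Pearson and conditional binomial 95% intervals cover counting error only. Genes with at least 50 CPM in 1 library and 50 UMIs over both were compared. For members against Pf4 or Ccl8 macrophages, 50 CPM was required in either population within each library. With 1 library per group no test was run, and a gene was called at 2-fold. The floor was 3 counts. Named genes were the population's markers, the rule genes, the 10 most abundant, the 10 highest and lowest of each comparison, the 8 most and 4 least like Cxcl9, and list members by abundance or 2-fold. Mitochondrial, ribosomal, haemoglobin, Gm, Rik and clone-named genes were left out of the ranked parts. Genes most like Saa3, those given by Saa3 UMIs, and others outside that rule, were chosen after their values were seen. Some genes and results under this rule are not reported here. Members and lists were chosen with earlier results of these data known. Cells were thinned to 2000 UMIs with seed 1. The alternatives were other limits of the rule, thinning before the rule, deeper or mixed cells left out, other scalings, free RNA subtracted and other limits on levels and folds. The scripts were tested on simulated data. Python 3.11.15, numpy 2.4.6, scipy 1.17.1, pandas 2.3.3 and matplotlib 3.10.9 were used.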

Additional observations from a re-analysis of the deposited data

Results flagged for a closer look

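Retnla had ratios of opposite sign in the 2 groups of C1q macrophages. Its log2 ratio, antibody over control IgG, was -0.55 in those low in Pf4 and Ccl8 and 1.14 in those with Pf4 or Ccl8, with both counting intervals on their own side of 0. The difference was not tested, and 9 members of the control IgG library held 675 of the 700 Retnla UMIs of that library's members. In the antibody library 2 members held 90 of 108, so both sides of the members' ratio rested on few cells.

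Cells with 5 or more C1q UMIs and at least 1 Cd3 UMI lay outside the comparisons, and numbered 290 with control IgG and 57 with the antibody, or 22.3% and 16.9% of all cells with 5 or more C1q UMIs. In 180 and 31 of them the Cd3 count was 1 UMI. Their median depths were 9780 and 10428 UMIs, and their Cd14 levels 709.0 and 527.2 CPM.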

How the results depend on the processing

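Among C1q macrophages low in Pf4 and Ccl8, the lower share of cells with the antibody kept its direction under all 9 alternatives, with log2 ratios from -1.68 to -1.33, and moved past its counting interval only when cells were thinned to 2000 UMIs before the rule (-1.68). Of the genes at least 2-fold higher and lower with the antibody, a limit of 200 CPM left 17 and 3, no limit gave 1332 and 657, and 1.5-fold gave 182 and 72. Against the Pf4 or Ccl8 cells the same 3 settings gave 2 and 8, 90 and 155, and 79 and 61. With Pf4 and Ccl8 at 0, 15 genes were lower with the antibody and 10 were higher than in the Pf4 or Ccl8 cells. Thinned to 1000 UMIs, a Cxcl9 UMI was found in 17.4% of control IgG members.

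Saa3 between the libraries ranged from -0.71 to 0.36, below 0 in 3 of 12 alternatives, the lowest without the carriers of peritoneal macrophage genes, an alternative added after the data were seen. Without those carriers 41 genes were at least 2-fold higher and 10 lower. The medians of the immediate early list (0.91 to 0.99) and of MHC class II (-0.30 to -0.15) kept their sign under all 12, as did that of chemokine ligands, which ranged from 0.48 with Pf4 and Ccl8 at 0 to 0.96 without members holding other cells' markers. No paired analysis was possible because mice were pooled into 1 library per group, and no replicate could be left out. The antibody library's 214 members limit genes under 50 CPM.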
